A study of Oryctolagus cuniculus with 12 samples.

Results

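The genes described here act in cell division: the cyclins A, B, D and E with their kinases and inhibitors, the spindle checkpoint, the kinetochore, condensin, the kinesin motors, and proteins of the spindle and of cytokinesis. They were chosen by symbol, from fixed names such as NDC80, ANLN and TPX2 and from name starts such as CENP, NCAP, KIF, AURK, PLK and CDKN. The rule found 82 genes, on 193 probes, among the 10215 genes that the arrays name. It also took in 4 genes by their prefix alone, AURKAIP1, CCNB1IP1, CDKN2AIP and CDKN2AIPNL, whose products interact with members. The tissue was the basilar artery of rabbits, which supplies the brain stem, and its RNA was read on 12 single-colour Agilent arrays. There were 4 groups of 3 arrays: normal controls (day 0 of the series) and arteries at day 3, day 5 and day 7 of SAH, an experimentally made subarachnoid hemorrhage, which is bleeding into the space around the brain. The labels used here give no strain, sex, age or method of the bleed, and none of the groups carries a further treatment in them. Nor do they state whether the 3 samples of a group came from different animals, so the p-values reflect the spread among these samples alone, and that spread may be technical.

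A dividing cell copies its DNA and then enters mitosis when CDK1, bound to cyclin B or cyclin A, is switched on. Condensin packs the chromosomes, the kinetochore ties them to spindle microtubules, and the spindle checkpoint kinases BUB1, BUB1B and TTK hold back CDC20, the activator of the anaphase-promoting complex, until all chromosomes are attached. The D cyclins act earlier, with CDK4 and CDK6, in the G1 phase. Smooth muscle and endothelial cells of a resting adult artery rarely divide, and most transcripts of the mitotic group are made mainly in cycling cells.

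Each probe is a stretch of 60 bases of a transcript, and the probes below carry the main results. CDK1 is read by 3 probes that lie end to end in the coordinates the array lists, at chr18:25387782-25387841, chr18:25387842-25389573 and chr18:25389574-25389633 on the minus strand, in a genome build that is not given in the sources used here. The second of these spans more of the genome than its own length. No letters are in capitals in these 3, and any 2 of them share a run of at most 8 bases.
CDK1 probe 1: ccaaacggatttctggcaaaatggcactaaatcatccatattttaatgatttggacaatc
CDK1 probe 2: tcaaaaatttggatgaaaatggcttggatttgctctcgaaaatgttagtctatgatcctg
CDK1 probe 3: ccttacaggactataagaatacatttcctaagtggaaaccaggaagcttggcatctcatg

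The other probes shown are those of BUB1 and BUB1B, the checkpoint kinases, of AURKA and AURKB, the aurora kinases, and of CCND1 and CCND2, the D cyclins. They are set in pairs because a probe may also bind the transcript of a related gene. Capitals mark the longest run of bases that the probes of a pair have in common. These runs were 5 bases long for BUB1 and BUB1B, 7 for AURKA and AURKB, and 5 for CCND1 and CCND2. They compare probe with probe, so they cannot show whether a probe binds the transcript of the related gene. For the D cyclins and the auroras the naming itself is open, since the array describes the CCND2 probe as cyclin D1 and the AURKA probe as aurora kinase B-like. The names used here come from the accession and the gene identifier in the RefSeq gene table.
BUB1: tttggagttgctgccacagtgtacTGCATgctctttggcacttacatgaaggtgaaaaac
BUB1B: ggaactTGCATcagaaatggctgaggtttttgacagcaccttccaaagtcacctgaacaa
AURKA: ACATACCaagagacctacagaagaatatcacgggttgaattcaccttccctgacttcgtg
AURKB: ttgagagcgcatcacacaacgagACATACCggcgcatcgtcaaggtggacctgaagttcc
CCND1: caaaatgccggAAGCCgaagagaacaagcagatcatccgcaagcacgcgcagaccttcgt
CCND2: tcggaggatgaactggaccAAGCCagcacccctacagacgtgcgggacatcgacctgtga

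The probes of NCAPG, NDC80 and CDC20, which are marker genes of the set, complete those shown. The NCAPG probe shares a run of 6 bases with that of NCAPG2, and the NDC80 probe 6 with that of NUF2; no letters are in capitals.
NCAPG: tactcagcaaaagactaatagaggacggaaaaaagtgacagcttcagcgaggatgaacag
NDC80: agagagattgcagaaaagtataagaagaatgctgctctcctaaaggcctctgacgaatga
CDC20: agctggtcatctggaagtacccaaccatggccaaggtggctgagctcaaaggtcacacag

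Levels below are log2 processed signals relative to the 75th percentile of the same array, so that 0 is the signal at that percentile. That percentile ranged from 127 to 191 signal units, saturation was absent, and precision is limited by having 3 arrays in a group. Control replicate 2 was the array with the fewest detected spots (50.1% well above background, the rest having 58.2% to 64.0%) and the most outlier spots (169, the rest having 1 to 16). A replicate number stands for a slide that carries all 4 groups, and since a group keeps its position from slide to slide, group and position cannot be told apart. Testing required a probe to be detected, that is, well above background, in every array of some group, and 57 of the 82 genes (131 probes) met this. Of these 57, 32 were well above background on all 3 controls, and 10 on no control. A gene that passed only on the arrays where it was high had to differ, so the totals called on each day against the controls are also given for the 32. Counts by role, of unadjusted p and of groups without overlap are given over all tested members only. They therefore include genes that passed only on the arrays where they were high. The 32 leave out more than those genes, since members detected on only some controls are left out too. On control replicate 2 the lowest signal counted as detected was -2.66, against -4.24 to -3.72 on the other arrays.

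The other 25 members had no test. For 15 of them the brightest probe was not well above background on any of the 12 arrays. The untested members were cyclins CCNA1, CCNE1 and CCNE2, the phosphatases CDC25A and CDC25C, which switch CDKs on, the G1 kinase CDK2, the inhibitor CDKN2B, the centrosome kinase NEK2, CENPE, CENPM, CENPO and SKA1 of the kinetochore, and 13 kinesins. TOP2A, PRC1 and BIRC5, which the rule also looks for, were not analysed here.

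On day 3 after the bleed, genes of the mitotic machinery were higher than in the controls, while the 2 D cyclins measured were lower. Of the 57 tested members, 22 were called higher and 3 lower (limma, Benjamini-Hochberg adjusted p below 0.05, two-sided), against 4.86% and 2.05% of all 7352 tested genes. The largest fitted rises were those of NCAPG, BUB1B, BUB1 and CDK1, and the genes called lower were CCND1, CCND2 and the kinesin KIF21A. Among the 32 members well above background on all controls, 7 were higher and 3 lower, against 3.99% and 2.39% of the 5868 genes detected in the same way. On every day 3 array 27 members were higher than on any control and 7 lower, against 13.7% and 11.4% of all genes, and 35 had an unadjusted p below 0.05, against 21.8%. The median log2 change over the 57 was 0.58, with 0.40, 0.81 and 0.41 on the 3 slides, and -0.01 over all genes. It was 0.34 with the 10 members not detected in any control set to their bound. In whole arteries, fewer cells of a type and less RNA per cell cannot be told apart.

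**Figure D1:**
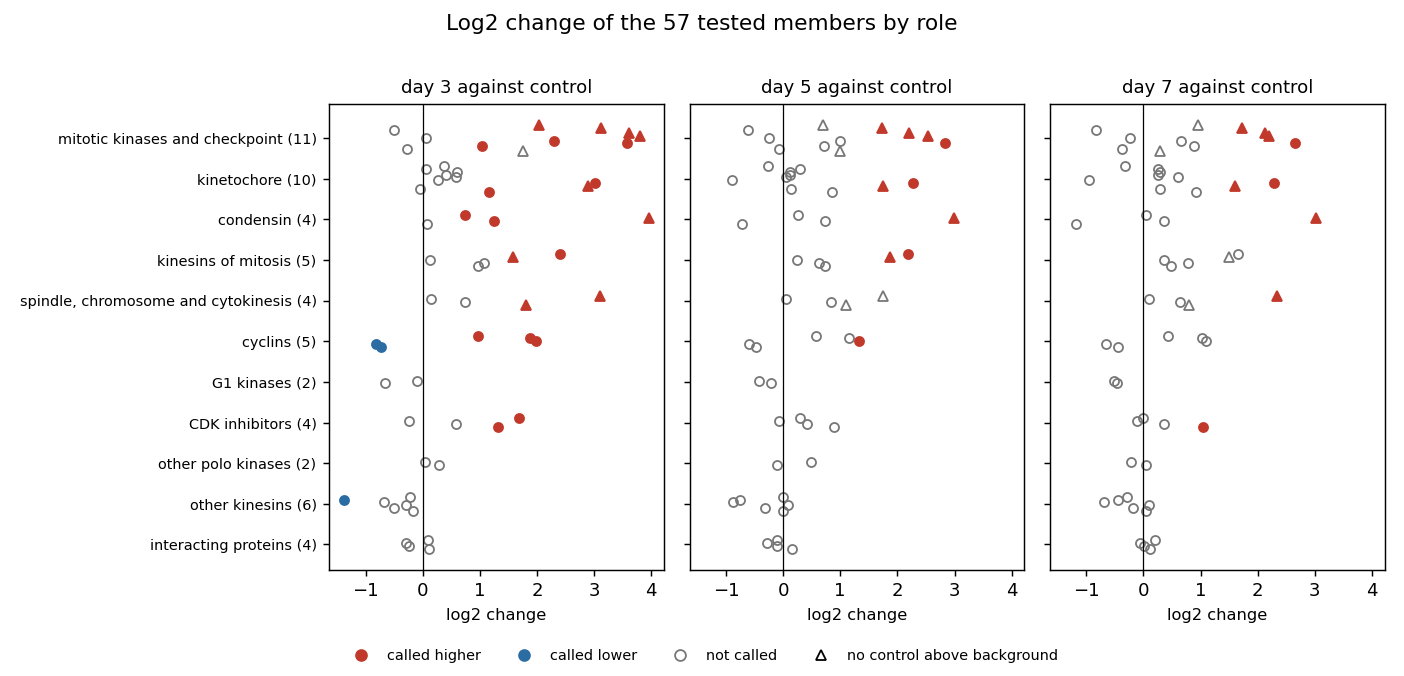
Log2 change against the controls for each of the 57 tested members, by role (rows, with the number tested) and day (panels). Filled red points were called higher, filled blue points lower, open points were not called, and triangles are genes with no control array above background, whose fitted change is not a bound; the red points lie in the mitotic, cyclin and inhibitor rows and the blue ones in the D cyclins and KIF21A.

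CDK1, the kinase that starts mitosis, had levels of -3.66, -3.55 and -2.99 in the controls (well above background on 2 of 3) and of -0.21, 0.29 and 0.43 on day 3. All 3 day 3 arrays lay above all controls. The log2 change was 3.57 (SE 0.30, adjusted p = 0.000116), an 11.9-fold rise. The other 2 of its adjacent probes gave 3.67 and 3.87 (adjusted p = 0.000172 and 0.000174).

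BUB1B, which blocks CDC20 while chromosomes are unattached, lay at -4.33, -4.81 and -5.20 in the controls, none of them above background, and at -1.38, -0.77 and -0.75 on day 3. The difference was at least 6.02-fold, a bound that sets day 3 against the lowest signal counted as above background in the controls. The limma adjusted p of 5.84e-05 is that of the fitted change of 3.81 and not of the bound. The same holds for each adjusted p printed beside a bound below. All 4 probes of BUB1B were called, with changes from 3.30 to 3.81. BUB1, its partner at the kinetochore, was at -6.08, -4.78 and -5.30 and then at -2.09, -1.71 and -1.53, at least 3.43-fold higher (adjusted p = 0.000137). For both genes the groups did not overlap.

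CDC20 was measured on all 12 arrays. Its levels were -2.82, -2.26 and -3.36 in the controls and -0.87, -0.49 and -0.21 on day 3, again with no overlap. It rose 4.89-fold (log2 change 2.29, SE 0.26, adjusted p = 0.000578). MAD2L1, the checkpoint protein that binds CDC20, rose 2.06-fold (1.04, SE 0.25, adjusted p = 0.0305). MAD2L1 was no longer called after removal of control replicate 2 or 3 (adjusted p = 0.0909 and 0.061) or of any day 3 array (0.0545 to 0.1).

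The aurora kinases differed in their detection. AURKB, the kinase of the chromosomal passenger complex that corrects attachments, was at -5.26, -4.00 and -5.04 in the controls and at -2.05, -1.27 and -1.62 on day 3, at least 3.76-fold higher (adjusted p = 0.000391). AURKA, which acts at the spindle poles, was higher by at least 1.21-fold (adjusted p = 0.0105), and TPX2, which activates AURKA on the spindle, at least 1.82-fold (adjusted p = 0.00518). All 3 genes were below detection in the controls. The calls of AURKA and TPX2 ended with another background correction (normexp, described below). Their changes were then 0.21 and 0.37 (adjusted p = 0.724 and 0.387). AURKC, the germ cell relative, had a change of -0.50 on its brightest probe (SE 0.40, adjusted p = 0.527). Its other tested probes ran from -0.29 to 0.44 on day 3 and were not called, so the sign differs between probes.

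Of the 11 tested genes of the mitotic kinases and checkpoint, 7 were called higher and none lower on day 3. The shares of all tested genes were 4.86% and 2.05%. Among the genes called, BUB1, BUB1B, AURKA and AURKB were detected in no control. The 4 not called were AURKC, BUB3, PLK1 and TTK. BUB3, the adaptor that brings BUB1 to the kinetochore, was at 2.97, 2.62 and 3.10 in the controls and at 2.90, 2.95 and 3.00 on day 3, with a change of 0.05 (SE 0.15, adjusted p = 0.883) and overlapping groups. PLK1, polo-like kinase 1, had a change of -0.28 (SE 0.23, adjusted p = 0.544). TTK, which starts checkpoint signalling, lay at -4.02, -4.57 and -6.30 in the controls and at -3.45, -2.85 and -3.35 on day 3. Its groups did not overlap, but with this spread the change of 1.75 (SE 0.63) did not pass the test (adjusted p = 0.127).

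**Figure D2:**
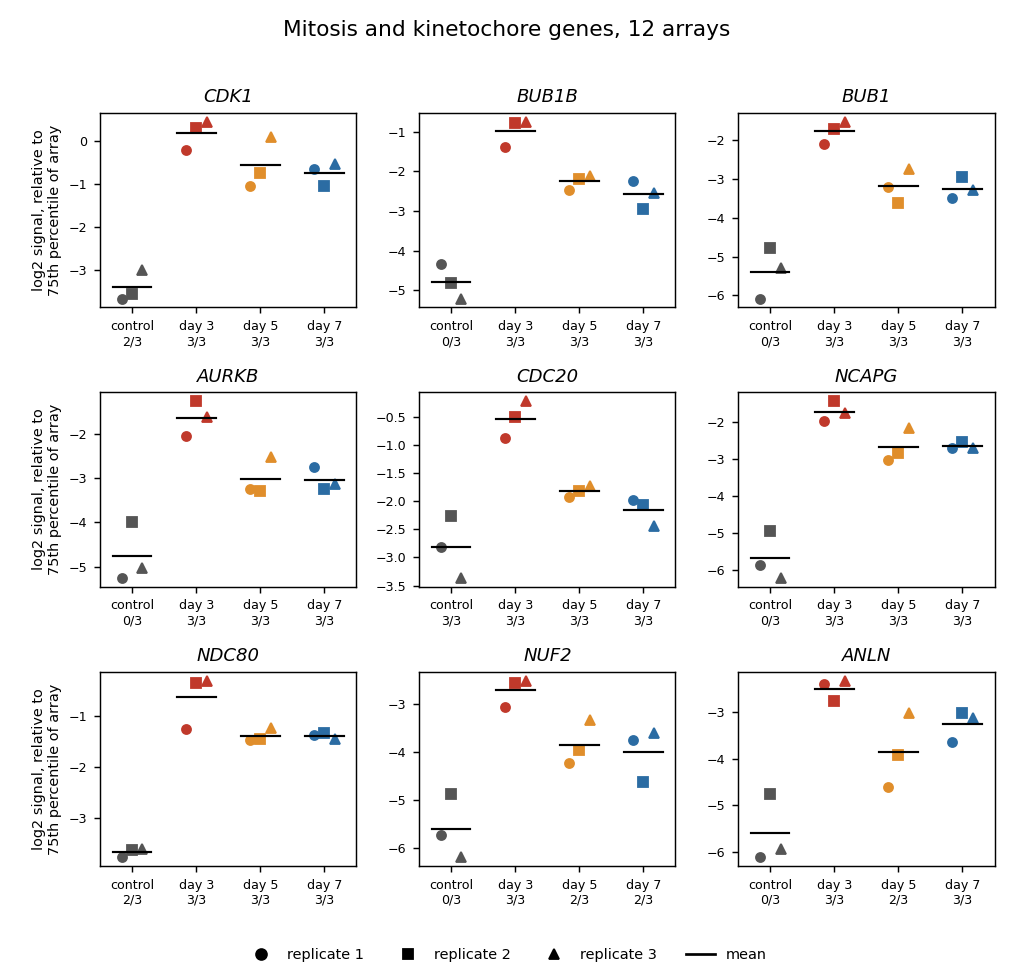
Level of 9 mitotic genes on each of the 12 arrays (y axis, log2 signal relative to the array's 75th percentile) by group (x axis), with the number of arrays well above background under each group; marker shapes are the replicate numbers and lines the group means. In every panel the 3 day 3 arrays lie above the 3 controls, and the means of days 5 and 7 lie between those of the controls and day 3.

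In the kinetochore, the genes called higher were 3 subunits of the complex that grips microtubules. NDC80 had levels of -3.76, -3.61 and -3.61 in the controls (2 of 3 above background) and -1.25, -0.36 and -0.31 on day 3, a change of 3.02 (SE 0.22, adjusted p = 7.21e-05) or 8.13-fold. NUF2, its partner in the same complex, was at -5.74, -4.89 and -6.20 and then at -3.07, -2.57 and -2.52, at least 1.79-fold higher (adjusted p = 0.00106). Of its 3 tested probes, 2 were called and the third had a change of 1.23 (adjusted p = 0.581). SPC25, a further subunit, rose 2.22-fold (1.15, SE 0.26, adjusted p = 0.0235). Removal of control replicate 2 ended the SPC25 call (adjusted p = 0.055), as did that of day 3 replicate 2 or 3 (0.0656 and 0.0846).

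The other 7 of 10 tested kinetochore genes were not called, and of all tested genes 4.86% were called higher on day 3. The inner proteins, which sit on centromeric chromatin, had changes of 0.06 to 0.60 on their brightest probes. CENPK had 0.60 (SE 0.25, adjusted p = 0.187), CENPP 0.58 (SE 0.49, 0.559), CENPN 0.42 (SE 0.15, 0.127), CENPB 0.37 (SE 0.20, 0.318) and CENPC 0.06 (SE 0.18, 0.886). The second CENPN probe was called (1.01, adjusted p = 0.0253). SKA2, of the outer SKA complex, had -0.04 (SE 0.21, 0.941). CENPT had 0.27, with controls at -3.35, -0.21 and -3.63, so that control replicate 2 set the spread (SD 1.90). The array describes the CENPT probe only as a hypothetical protein.

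Condensin genes were called higher on day 3 in 3 of 4 cases, against 4.86% of all tested genes. NCAPG, a subunit of condensin I, was at -5.85, -4.94 and -6.21 in the controls, none above background, and at -1.96, -1.43 and -1.76 on day 3, at least 3.59-fold higher (adjusted p = 7.74e-05). NCAPG2, of condensin II, rose 2.37-fold (1.25, SE 0.23, adjusted p = 0.0104). NCAPD2, of condensin I, had a smaller change of 0.74 (SE 0.20, adjusted p = 0.0482). Blocking on the slide ended the NCAPD2 call (adjusted p = 0.0628). So did removing any 1 of 9 arrays (0.0554 to 0.165), the exceptions being control replicate 3, day 7 replicate 3 and day 3 replicate 1.

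NCAPH, the fourth condensin gene, depends on which probe is read. Its brightest probe had controls at -3.13, -0.88 and -3.95 and day 3 arrays at -2.91, -2.51 and -2.32, a change of 0.08 (SE 0.61, adjusted p = 0.963). Control replicate 2 was the high one. Its other 4 probes gave changes of 1.08 to 1.25, and 1 of them was called (1.25, adjusted p = 0.0363).

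Among the proteins of the spindle and of cytokinesis, ANLN, the anillin of the contractile ring, was at -6.11, -4.75 and -5.93 in the controls and at -2.41, -2.76 and -2.33 on day 3, at least 2.08-fold higher (adjusted p = 0.00129). Its second probe was called too (2.90, adjusted p = 0.00171). ECT2, the exchange factor that starts the contractile ring, had a change of 0.14 (SE 0.16, adjusted p = 0.678), and NUSAP1, which bundles spindle microtubules, 0.73 (SE 0.29, adjusted p = 0.167). These are the values of the brightest probes, and others differed. The dimmer ECT2 probe was called on all 3 days, with 2.54, 2.497 and 2.63 (adjusted p = 0.00859, 0.0191 and 0.0143). One of the dimmer NUSAP1 probes was called on all 3 days as well, with 3.70, 3.36 and 2.63 (adjusted p = 0.00348, 0.0119 and 0.0384), while the other had -0.02 on day 3 (adjusted p = 0.995).

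Of the 5 tested kinesins of mitosis, 2 were called higher on day 3, against 4.86% of all tested genes. KIF14, a motor of cytokinesis, rose 5.27-fold (2.40, SE 0.48, adjusted p = 0.0136), with 1 of 3 controls above background and control levels that ran from -3.85 to -6.24. Without control replicate 3, its lowest control, the change was 1.78 (adjusted p = 0.0177). The fold for KIF14 takes the undetected controls at their own signals. Its call ended with normexp (0.43, adjusted p = 0.214) and with only the control and day 3 arrays fitted (adjusted p = 0.0623). KIF18A, which damps chromosome movements before anaphase, was detected in no control and on 2 of 3 day 3 arrays. Its fitted change was 1.59 (SE 0.38, adjusted p = 0.0318), but its day 3 mean lay below the detection limit of the controls, so no fold is given. KIF18A was not called after removal of control replicate 1 or 3 (adjusted p = 0.107 and 0.0631) or of day 3 replicate 1 or 2 (0.0925 and 0.103).

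The remaining 3 mitotic kinesins were not called. KIF2C, which takes microtubules apart at the centromere, was close to the threshold, with 0.96 (SE 0.26, adjusted p = 0.0512) and no overlap between the groups. Its dimmer probe was called on days 3, 5 and 7, with 2.66, 1.82 and 1.54 (adjusted p = 0.000633, 0.0126 and 0.0284). KIF20B had 1.06 (SE 0.39, adjusted p = 0.137). The only KIF20A probe was bright on all arrays, at 8.38 to 9.21 in the controls and 8.73 to 9.004 on day 3, with a change of 0.13 (SE 0.22, adjusted p = 0.796). Its mean over all arrays was 8.96, while the brightest tested probes of KIF2C, KIF20B, KIF14 and KIF18A had means of -4.23 to -3.33. Whether the KIF20A probe reads that transcript was not tested.

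The other kinesins, most of them transport motors, had no call upwards. Of 6 tested, only KIF21A, a motor that also limits microtubule growth, was called, and it was lower, from -1.03, -1.96 and -1.38 in the controls to -2.82, -2.52 and -3.14 on day 3. KIF21A thus fell by 1.37 (SE 0.30, adjusted p = 0.0214), a 2.58-fold drop, and lost its call after removal of control replicate 1 (0.078) or of day 3 replicate 1 or 3 (0.0529 and 0.0922). KIF5B, the heavy chain of conventional kinesin, had -0.17 (SE 0.14, adjusted p = 0.526), KIF1B -0.23 (SE 0.18, adjusted p = 0.515) and KIF26B -0.68 (SE 0.24, adjusted p = 0.124).

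The cyclins moved in opposite directions on day 3, the A and B types up and the D types down. CCNB2 was at -4.36, -3.30 and -3.19 in the controls (1 of 3 above background) and at -1.94, -1.39 and -1.58 on day 3, a 3.94-fold rise (1.98, SE 0.28, adjusted p = 0.00195). Its other probes gave 3.78 (adjusted p = 0.0158) and 2.57 (0.0793). With normexp the CCNB2 change was 0.53 and was not called (adjusted p = 0.0844). CCNB1 was at -1.56, -0.85 and 0.10 and then at 0.72, 1.003 and 1.62, a 3.69-fold rise (1.88, SE 0.44, adjusted p = 0.0276). Its second probe gave a larger change of 4.03 (adjusted p = 0.000418), so the size of the CCNB1 rise differs between probes. The brighter probe was not called after removal of control replicate 1 or 2 (adjusted p = 0.092 and 0.0698) or of day 3 replicate 2 or 3 (0.0634 and 0.114).

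CCNA2, the cyclin of S phase and early mitosis, was at -1.40, -1.90 and -1.39 in the controls and at -0.85, -0.86 and -0.08 on day 3. It rose 1.95-fold (0.97, SE 0.23, adjusted p = 0.0331), and each of its 3 probes was called. Removing control replicate 1 or 2 (adjusted p = 0.0603 and 0.0968) or day 3 replicate 3 (0.11) ended the call of the brightest one.

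CCND1, cyclin D1, was at 2.10, 2.59 and 2.44 in the controls and at 1.59, 1.28 and 1.84 on day 3. The groups did not overlap. It fell by 0.81 (SE 0.20, adjusted p = 0.0369), or 1.75-fold. CCND1 lost its call after removal of 6 single arrays: control replicates 2 and 3 (adjusted p = 0.103 and 0.0703), day 3 replicates 1 and 2 (0.0802 and 0.129), day 5 replicate 2 (0.0545) and day 7 replicate 2 (0.0547). CCND2 was at 6.72, 6.62 and 6.85 and then at 6.04, 5.94 and 5.997, a fall of 1.67-fold (-0.74, SE 0.14, adjusted p = 0.0117). The CCND2 call held when any single array was left out, but ended with only the control and day 3 arrays fitted (adjusted p = 0.0545). The CCND1 call ended in that fit too (0.105), with normexp (0.0633) and with no filter on dim probes (0.0895). The partner kinases of the D cyclins in G1 were not called, with -0.66 for CDK6 (SE 0.22, adjusted p = 0.101) and -0.10 for CDK4 (SE 0.24, adjusted p = 0.858). CDK6 has 5 tested probes with changes from -0.69 to -0.66, of which 1 was called (-0.69, adjusted p = 0.0448).

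Of the 4 tested genes named as CDK inhibitors, 2 were called higher on day 3, against 4.86% of all tested genes. CDKN1A, the p21 inhibitor that halts the cycle, was at -1.84, -0.91 and -2.05 in the controls and at 0.45, -0.41 and 0.20 on day 3, a 3.20-fold rise (1.68, SE 0.33, adjusted p = 0.0121). CDKN3, a phosphatase that acts on CDKs, was at 0.50, 0.28 and 0.58 and then at 1.51, 1.85 and 1.93, a 2.48-fold rise (1.31, SE 0.23, adjusted p = 0.00697). Its 3 probes gave 1.26 to 1.31 and all were called. CDKN1B, the p27 inhibitor of resting cells, had -0.24 (SE 0.20, adjusted p = 0.536), and CDKN2C 0.58 (SE 0.21, adjusted p = 0.13).

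**Figure D3:**
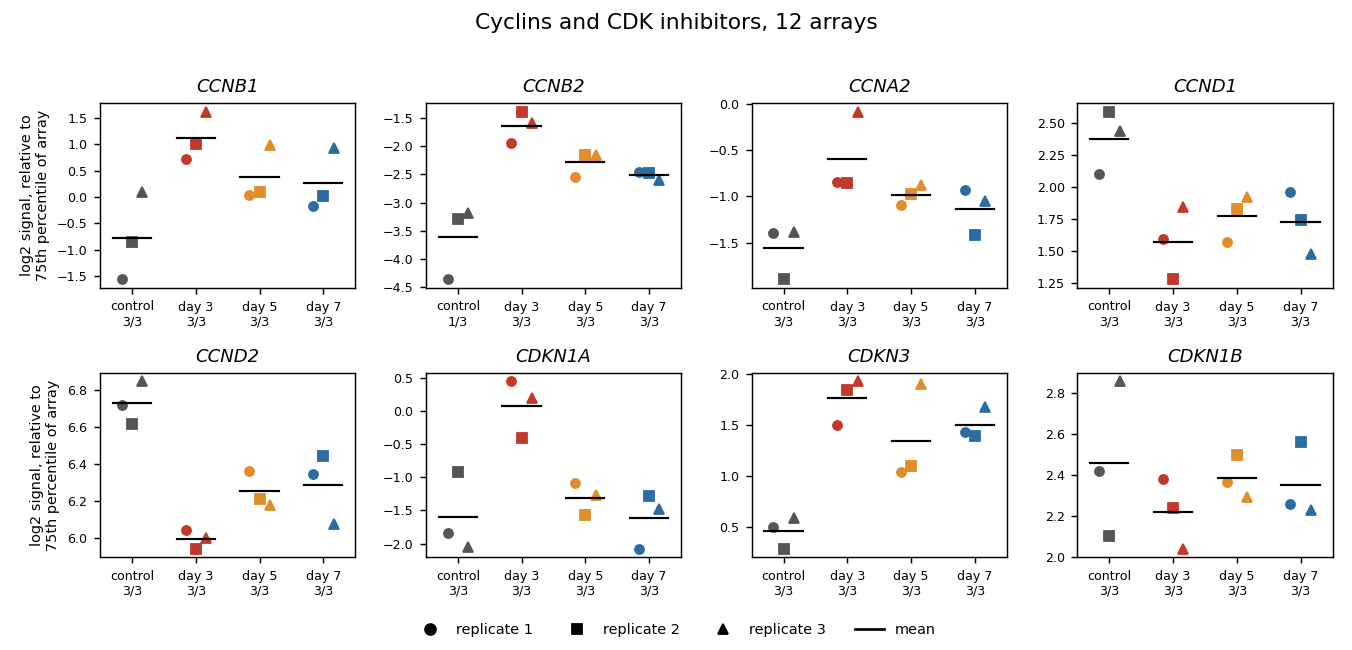
Level of 5 cyclins and 3 CDK inhibitor genes on each of the 12 arrays (y axis, log2 signal relative to the array's 75th percentile; each panel has its own scale) by group (x axis), with the number of arrays well above background under each group; lines are group means. CCNB1, CCNB2, CCNA2, CDKN1A and CDKN3 are higher on every day 3 array than on any control, CCND1 and CCND2 lower, and CDKN1B overlaps.

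The other polo kinases and the interacting proteins showed no call on any day. PLK2 had 0.05 on day 3 (SE 0.21, adjusted p = 0.934) and PLK4, which starts centriole copying, 0.28 (SE 0.53, adjusted p = 0.817). The 4 interacting proteins had changes from -0.29 to 0.11 on day 3.

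Over the 12 members called on day 3 that several tested probes read, every probe was called in 9 and every probe had the same sign in all 12. Of the 21 members not called on day 3 that several tested probes read, 6 had another probe called: CDK6, CENPN, ECT2, KIF2C, NCAPH and NUSAP1. On day 5 there were 6 such members (ANLN, CCNA2, CCNB1, ECT2, KIF2C and NUSAP1) and on day 7 there were 4 (CCNB1, ECT2, KIF2C and NUSAP1), so the counts of called members depend on which probe is read. With normexp background correction, which adds an offset and so shrinks changes of dim genes, 10 members were called on day 3 in place of 25, and 15 when only the control and day 3 arrays were fitted. Normexp ended the day 3 calls of BUB1 (0.72, adjusted p = 0.0648), NUF2 (0.45, 0.212) and ANLN (0.41, 0.292). It also ended those of NCAPG2 (0.39, 0.155), SPC25 (0.26, 0.433), KIF18A (0.17, 0.753), MAD2L1 (0.49, 0.109), NCAPD2 (0.38, 0.186) and KIF21A (-0.55, 0.108). The calls of AURKA, TPX2, KIF14, CCNB2, CCNA2 and CCND1 ended with it too. AURKB, BUB1B, CDC20, CDK1, CDKN3, NCAPG and NDC80 were called on day 3 in all 21 alternatives run.

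Further genes of the cycle outside the rule were counted in lists, to be read against the 4.86% higher and 2.05% lower among all tested genes. Of 42 listed partners of mitosis, 27 had a probe and 16 were tested, of which 7 were higher and 1 lower on day 3, with a median of 1.16. UBE2C, the ubiquitin-conjugating enzyme of the anaphase-promoting complex, had a change of 3.42 (SE 0.27, adjusted p = 7.74e-05; 1 of 3 controls above background), MKI67, the source of the Ki-67 antigen of cycling cells, 2.93 (SE 0.27, adjusted p = 0.000163; 2 of 3 controls) and CKS2, which binds CDK1, 2.24 (SE 0.29, adjusted p = 0.00125). The 1 lower was CCNF, cyclin F, at -1.57 (SE 0.28, adjusted p = 0.00697). Of 14 tested replication genes, 6 were higher and none lower, with a median of 0.73. They were MCM3, MCM4 and MCM5 of the replicative helicase, RRM1 and RRM2 of the enzyme that makes DNA precursors, and TK1, thymidine kinase.

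Other lists had 0 or 1 call on day 3, and lists of 7 to 14 genes are too small for more to be read against those shares. None of 9 genes of the anaphase-promoting complex was called (median 0.14), none of 7 cohesin genes (median -0.08), and of 14 genes that control transcription in the cycle only TFDP2 was called, lower, at -0.64 (adjusted p = 0.0413). Of 8 further cyclins and their kinases, PKMYT1, a kinase that inhibits CDK1, was called higher (1.93, adjusted p = 0.00135, above background on no control). Of the 16 tested partners of mitosis, 3 were called higher on day 5 and 3 on day 7, and of the 14 tested replication genes 3 and 2. Among all tested genes, 1.93% were higher on day 5 and 1.97% on day 7. No gene of the other lists of the cycle was called on these 2 days.

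Markers of several cell types moved on the same days, and their part in the changes of the mitotic genes was not tested. Of 4 tested macrophage markers, 3 (CD68, CD14 and MSR1) were called higher on each of the 3 days, and the summed signal of the list, in multiples of the 75th percentile, ranged over 4.27 to 6.87 for controls, 12.97 to 18.1 for day 3, 15.4 to 21.6 for day 5 and 14.6 to 17.9 for day 7. The summed signal of 7 smooth muscle markers ranged over 639 to 741 for controls, 436 to 506 for day 3, 427 to 535 for day 5 and 458 to 591 for day 7, and none of the 7 was called. Of 6 fibroblast and leptomeninges markers, 3 were called higher on day 3 (COL1A1, COL1A2 and LUM) and 1 lower (PTGDS). The median log2 change of the 6 was 0.98. The sum for this list nevertheless fell, from 1017 to 2113 among controls down to 627 to 725 at day 3. PTGDS weighs most in that sum, having the highest control mean of the 6 (10.33, against 8.74 at day 3). Day 5 had 2 of the 6 called higher and day 7 had 3, with none lower and medians of 1.04 and 1.07. Sums at day 5 (932 to 946) and day 7 (1031 to 1337) exceeded those of day 3. Of 5 lymphocyte markers 1 was higher on day 3 (CD79B), and of 3 pericyte markers 1 (PDGFRB). None of 4 endothelial, 4 neutrophil or 3 erythroid markers was called on any day. The glial markers GFAP and AQP4 were above background on no array, and no marker of the neural list could be tested.

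On day 5, fewer of the mitotic genes were called and the values of most lay between those of the controls and of day 3. Of the 57 tested members, 10 were higher and none lower, against 1.93% and 0.218% of all genes. The 10 were CDK1, BUB1, BUB1B, AURKB, NDC80, NUF2, NCAPG, KIF14, KIF18A and CCNB2. None of them was among the 32 members detected in all controls, of which 0 were called, against 1.41% higher and 0.204% lower of the genes detected in the same way. An unadjusted p below 0.05 was reached by 26 of the 57, against 14.8% of all genes. Without overlap, 23 were higher and 3 lower, against 10.1% and 6.84%. The median over the 57 was 0.27, with 0.30, 0.39 and 0.53 on the slides, 0.12 with undetected members at their bound, and 0.02 over all genes. All comparisons of a day with the controls share the same 3 control arrays.

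CDK1 was at -1.06, -0.76 and 0.09 on day 5, above all controls, a 7.10-fold difference (2.83, SE 0.30, adjusted p = 0.00125). NDC80 was at -1.46, -1.44 and -1.24, 4.85-fold higher (2.28, SE 0.22, adjusted p = 0.00105). NCAPG, at -3.03, -2.82 and -2.16, exceeded the controls at least 1.85-fold (adjusted p = 0.00106), and BUB1B, at -2.46, -2.19 and -2.11, at least 2.48-fold (adjusted p = 0.00106). BUB1 exceeded them at least 1.29-fold (adjusted p = 0.00516). The calls of CDK1, NDC80, NCAPG, BUB1B and BUB1 held without any single array. Those of NCAPG (0.81, adjusted p = 0.0537) and BUB1 (0.68, 0.137) ended with normexp. That of BUB1 also ended when only the control and day 5 arrays were fitted (adjusted p = 0.0517). The dimmest BUB1B probe was not called on day 5 (2.18, adjusted p = 0.104).

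The other 5 calls of day 5 each ended when single arrays were left out. AURKB, at least 1.45-fold higher (adjusted p = 0.0243), lost its call without control replicates 1 (0.0865) or 3 (0.0578) or day 5 replicates 1 (0.0553) or 3 (0.0815). CCNB2, 2.51-fold higher (1.33, SE 0.28, adjusted p = 0.0349), lost it without any day 5 or day 7 array (0.0528 to 0.106). KIF14, 4.57-fold higher (2.19, SE 0.48, adjusted p = 0.0415), lost it with the slide as a block (0.0525) and without 9 of the 12 arrays (0.0554 to 0.128), that is, all but control replicates 1 and 3 and day 7 replicate 2, and its change was 1.57 (0.05) without control replicate 3.

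KIF18A, with a fitted change of 1.87 (SE 0.38, adjusted p = 0.0306), lost its call without control replicates 1 (0.101) or 3 (0.0588) or any day 5 array (0.0595 to 0.102). NUF2, with 1.76 (SE 0.37, adjusted p = 0.0355), lost it with the slide as a block (0.0568) and without 7 arrays (0.0504 to 0.111): control replicates 1 and 3, the 3 day 5 arrays, day 3 replicate 2 and day 7 replicate 1. The day 5 means of KIF18A and NUF2 lay below the detection limit of the controls, so neither has a fold. Called members numbered 5 without day 5 replicate 3 and 6 without day 5 replicate 1 or 2. It was 12 without control replicate 2, and CDC20 (0.99 in the full fit) was then called (1.27, adjusted p = 0.0275).

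On day 7, 9 of the 57 were called higher and none lower, against 1.97% and 0.585% of all genes, with 1 of the 9, CDKN3, among the 32 detected in all controls (1.57% and 0.613% of such genes were higher and lower). An unadjusted p below 0.05 was reached by 21 of the 57, against 19.4% of all genes, and without overlap 18 were higher and 3 lower, against 12.2% and 11.0%. The other 8 were CDK1, BUB1, BUB1B, AURKB, NDC80, NUF2, NCAPG and ANLN. The median over the 57 was 0.28, with 0.20, 0.25 and 0.36 on the slides, 0.10 with undetected members at their bound, and 0.03 over all genes. CDK1 was at -0.65, -1.06 and -0.54, 6.29-fold above the controls (2.65, SE 0.30, adjusted p = 0.00142). NDC80 was at -1.37, -1.34 and -1.44, 4.85-fold higher (2.28, SE 0.22, adjusted p = 0.000618). Both groups lay wholly above the controls.

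NCAPG, at -2.71, -2.54 and -2.69 on day 7, exceeded the controls at least 1.88-fold (adjusted p = 0.000807), BUB1B, at -2.24, -2.94 and -2.56, at least 1.97-fold (adjusted p = 0.0018), and BUB1 at least 1.23-fold (adjusted p = 0.00697). These calls held without any single array. All of them ended with normexp: NCAPG had 0.55 (adjusted p = 0.203), BUB1B 0.44 (0.277) and BUB1 0.41 (0.49). The dimmest BUB1B probe was not called on day 7 (0.96, adjusted p = 0.431). For ANLN the difference was at least 1.22-fold (adjusted p = 0.0143), and removing control replicate 1 (0.0598) or day 7 replicate 2 or 3 (0.0573 and 0.0653) ended its call. AURKB, at least 1.43-fold higher (adjusted p = 0.0243), lost its call without control replicate 1 (0.091) or any day 7 array (0.0573 to 0.106).

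CDKN3, 2.07-fold higher (1.05, SE 0.23, adjusted p = 0.0391), lost its call without 7 arrays (0.0513 to 0.137): control replicates 1 and 2, the 3 day 7 arrays, day 3 replicate 2 and day 5 replicate 2. NUF2 was at -3.76, -4.64 and -3.62 on day 7, a mean below the detection limit of the controls, so no fold is given. Its fitted change of 1.60 (SE 0.37, adjusted p = 0.0491) lost its call with the slide as a block (0.0625) and without 9 arrays (0.0554 to 0.168). The 3 exceptions were control replicate 2, day 5 replicate 3 and day 7 replicate 2. Removing day 7 replicate 3 left 5 called members. Without control replicate 1 or day 7 replicate 1 or 2 it was 6.

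**Figure D4:**
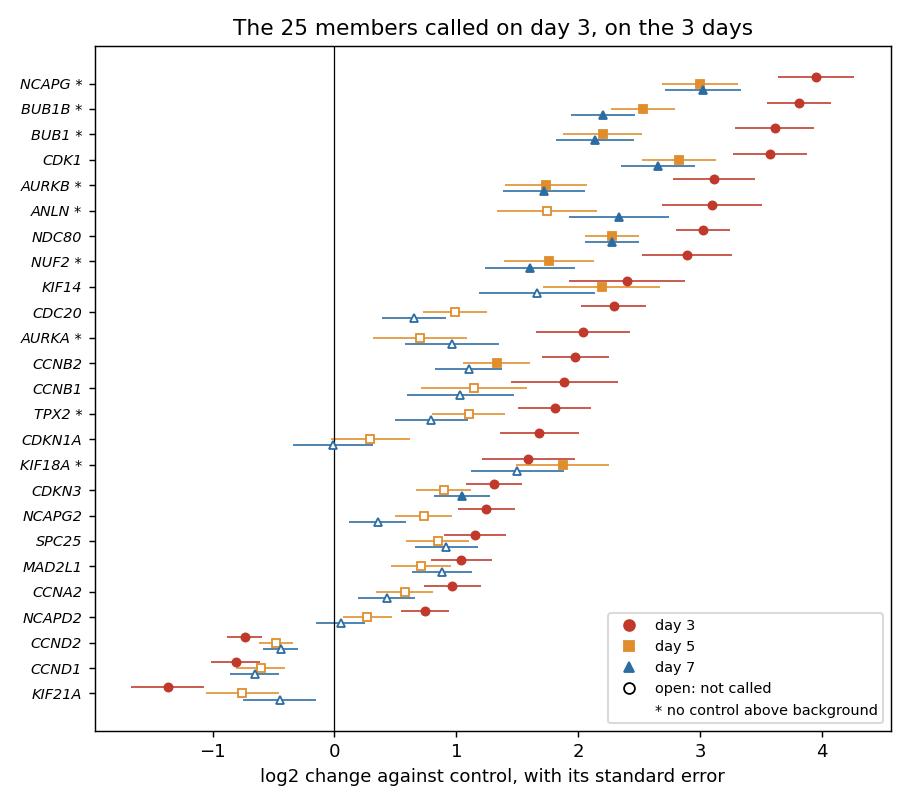
Log2 change against the controls, with its standard error, of the 25 members called on day 3 (rows), on day 3 (red circles), day 5 (orange squares) and day 7 (blue triangles); filled markers were called and stars mark genes with no control above background. Of the 22 genes called higher on day 3, 21 have their highest mean on day 3, and KIF18A has it on day 5.

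The day 3 values stood above those of the later days for most of the risers. Of the 22 members called higher on day 3, 21 had their highest group mean then, all 22 had a lower mean on day 7 than on day 3, and 21 still had a day 7 mean above the controls. For 16 of them every day 7 array lay below every day 3 array, and for 15 every day 7 array lay above every control. CDKN1A was the gene whose day 7 mean was not above the controls, with arrays at -2.08, -1.29 and -1.47 on day 7, -1.09, -1.57 and -1.26 on day 5 and changes against the controls of -0.01 (day 7) and 0.29 (day 5). These counts describe genes chosen by their day 3 values, and no test is drawn from them.

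Tested directly, few differences between days passed. Between day 7 and day 3, 2 members were called lower and none higher, against 0.0952% and 0.0136% of all genes, and 18 of the 57 had an unadjusted p below 0.05, against 11.7% of all genes. Without overlap, 23 were lower and 4 higher, against 13.0% and 10.4%. CDC20 fell from -0.87, -0.49 and -0.21 on day 3 to -1.98, -2.07 and -2.43 on day 7 (-1.64, SE 0.26, adjusted p = 0.0467). BUB1B fell from -1.38, -0.77 and -0.75 to -2.24, -2.94 and -2.56 (-1.61, SE 0.26, adjusted p = 0.0467). In both genes the groups did not overlap. With the slide as a block neither was called (adjusted p = 0.082 and 0.108).

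Both calls also ended when single arrays were left out. CDC20 lost its call without any of 10 arrays (adjusted p = 0.0506 to 0.226), all but control replicates 2 and 3. BUB1B lost it without 9 arrays (0.0555 to 0.226), all but control replicates 2 and 3 and day 3 replicate 1. For CDKN1A the difference was -1.69 (SE 0.33, adjusted p = 0.0908), for BUB1 -1.48 (SE 0.32, 0.139), for CDK1 -0.92 (SE 0.30, 0.315) and for NDC80 -0.75 (SE 0.22, 0.263).

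Between day 5 and day 3, limma called none of the 57 and none of all 7352 genes. An unadjusted p below 0.05 was reached by 16 of the 57, against 7.49% of all genes, and with array weights 13 members were called, 12 of them lower on day 5. On every day 5 array 22 members were lower than on any day 3 array and 2 were higher, against 7.41% and 7.49% of all genes. BUB1B had -1.28 (SE 0.26, adjusted p = 0.169) and CDC20 -1.30 (SE 0.26, adjusted p = 0.163). Between day 7 and day 5, none was called, and 1 had an unadjusted p below 0.05, against 1.75% of all genes. CDK1 had a difference of -0.17 (SE 0.30) there.

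The D cyclins remained below the controls in mean on the later days, without a call. CCND1 was at 1.57, 1.83 and 1.92 on day 5 and 1.96, 1.74 and 1.47 on day 7, with changes of -0.60 (SE 0.20, adjusted p = 0.175) and -0.65 (SE 0.20, adjusted p = 0.118). CCND2 was at 6.36, 6.21 and 6.18 on day 5 and 6.34, 6.44 and 6.07 on day 7, with changes of -0.48 (adjusted p = 0.132) and -0.44 (adjusted p = 0.135). For both genes every array of days 5 and 7 lay below every control. The difference from day 3 was 0.16 for CCND1 (SE 0.20) and 0.30 for CCND2 (SE 0.14) on day 7, neither of which passed the test (adjusted p = 0.83 and 0.468).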

How the data were processed

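Total RNA was labelled with Cy3 and hybridised to 1 array per sample, and Agilent Feature Extraction (version 9.5.1.1) read the scans, per the submitters' processing notes. The processed signal is an intensity that the authors deposited per spot, background-subtracted and detrended within its array, per the file headers. Deposited with it were the spot's mean signal and its background, both unprocessed intensity, and flags of the kind other (0 or 1) for detection, outliers and saturation, per the file headers. A value table that the authors deposited, in intensity with a median of 27.0 in every column, followed the processed signals (r of 0.994 or more) and served as an alternative; its scaling steps are not given in the sources used here.

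Control spots were left out and outlier spots set to missing. Of 43623 probes, 22367 name 1 gene, 125 several and 21131 none, through RefSeq names of assembly mOryCun1.1. log2 processed signals minus the array's 75th percentile were fitted for 26433 tested probes with limma 3.58.1 (R 4.3.3), without a block, two-sided, with Benjamini-Hochberg adjustment over all of them and calls at adjusted p below 0.05. The same script was tested on simulated data. A gene's value is its tested probe with the highest mean. A fold is a bound where a group has no detected array: the dim group's arrays then enter at their detection limit (the lowest detected signal of any probe) or at the probe's own value if that is higher. No fold is given where that bound is under 1. With control replicate 2 the lowest such signal is -2.66, against -4.24 to -3.72 on the other arrays. Where only some arrays of a group are detected, the fold is the fitted one and not a bound. An adjusted p beside a bound is that of the fitted change.

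Members, role classes, gene lists and the rule for named genes were chosen with earlier results of these data known. The rule names the 6 marker genes of the set, up to 12 rises and 8 falls per day, up to 5 calls per direction between days, and the tested cyclins, kinases, inhibitors, checkpoint and kinetochore genes; other members were named after their values were seen. Alternatives were the slide as a block, normexp with an offset of 50, quantile normalization, the authors' value table, 2 other filters, array weights, the mean of a gene's probes, only the groups compared, and each array left out in turn.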

Additional observations from a re-analysis of the deposited data

Results flagged for a closer look

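Among the members, 2 differed between days by the test of that difference, day 7 against day 3. BUB1B had a difference of -1.61 on the log2 scale (SE 0.26, limma adjusted p = 0.0467), lower on 3 of 3 day 7 arrays than on any day 3 array, and CDC20 had -1.64 (SE 0.26, adjusted p = 0.0467), likewise lower on 3 of 3. The log2 change within slides was -0.86, -2.16 and -1.81 for BUB1B and -1.11, -1.58 and -2.21 for CDC20. Groups of 3 are too small for the outlier test, which was not run.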

How the results depend on the processing

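No called result changed its direction under any alternative run. Day 3 had 25 called members, 10 with normexp and 15 with only the 2 groups fitted. Day 5 had 10, 4 with normexp, 5 without a filter and 4 with only the 2 groups. Day 7 had 9, and 2 with normexp. Between day 5 and day 3 array weights called 13 in place of 0. Between day 7 and day 3, 2 were called, 1 with quantile normalization, 5 with array weights, and 0 with the replicate block, normexp, the authors' value table, no filter, the mean of a gene's probes and only the 2 groups. The cause was not tested, but the 2-group fits hold fewer arrays and the fit without a filter holds more probes. Setting undetected genes to their bound moved the members' median to 0.34, 0.12 and 0.10 on days 3, 5 and 7. With single arrays left out, the counts were 19 to 26 on day 3, 5 to 12 on day 5, 5 to 10 on day 7, 0 to 3 between day 7 and day 3, and 0 for the other pairs of days. Without control replicate 2, 19 members were called on day 3. Normexp moved the median of all genes by 0.10 on day 5 and 0.11 between day 5 and day 3.

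Deviations from group means of same-numbered arrays correlated at -0.15 to 0.39 (18 pairs, median 0.11), and of other numbers at -0.40 to 0.26 (median -0.04). Of the 12 arrays, 10 correlated best with their own number, so part of the spread may be shared within a slide. The main fit does not model this. It had no block because the labels state no pairing of the samples. With the replicate block 24, 11 and 10 members were called on days 3, 5 and 7. Dim genes limit what can be said: 10 members were not detected in any control, and 25 were not tested.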
